A study of Mus musculus with 53 samples.

Results

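Tumours of the small intestine from VilCreER+ Apc fl/+ mice (n = 5 libraries, tumours 1 to 5) were compared with small intestinal tissue from VilCreER+ mice with no other engineered allele (n = 3 libraries, WT 1 to 3). The 8 libraries were taken from the 53 bulk RNA-seq libraries of the series by genotype and tissue: all primary tumours labelled Apc fl/+, and the WT small intestine libraries that carry no day after induction. All 8 are labelled inbred C57BL6/J (N9) with no drug treatment. The VilCreER transgene, which both groups carry, places a tamoxifen-activated Cre recombinase under the villin promoter, so recombination is limited to the intestinal epithelium. In the tumour mice it deletes 1 floxed copy of Apc, and adenomas in such mice are known to arise where the other copy is lost as well. Mice of the study were induced with tamoxifen as adults of 6 to 12 weeks and tumours were collected at endpoint, but the age, sex and stretch of small intestine are not labelled for single libraries. The labels name no pools and do not say that the 5 tumours come from 5 mice, so p-values measure the spread between these libraries. A pair of other comparisons of the series served as references: VilCreER+ Apc fl/fl small intestine (n = 10) with VilCreER+ small intestine (n = 6), both at day 4 after induction, and BA tumours (VilCreER+ BrafV600E/+ Alk5fl/fl, n = 4) with VilCreER+ proximal colon (n = 3). These 4 groups are labelled mixed C57BL/6J N6, without drug.

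APC is a scaffold of the complex that marks beta-catenin for destruction, and where APC is lost beta-catenin accumulates and Wnt target genes are transcribed. In the small intestine, Wnt signals keep stem cells and Paneth cells at the crypt base, while cells that leave the crypt mature into absorptive enterocytes on the villus or into goblet, enteroendocrine and tuft cells. An adenoma is a benign outgrowth of this epithelium with its own fibroblasts, vessels and immune cells, and all of them contribute RNA to a library of whole tissue. The question here was what else distinguishes the adenomas from WT tissue beyond Wnt target genes.

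Between 18385775 and 20046460 reads per WT library and between 18356939 and 27927548 per tumour were counted on genes. Levels are given as normalised CPM, the read counts scaled to a common library size after TMM correction, which are not corrected for gene length, so they are compared between libraries and not between genes. A log2 fold change is tumours over WT, with its standard error (SE), from the quasi-likelihood test of edgeR, and a gene is called higher or lower where the Benjamini-Hochberg adjusted p over all genes tested is under 0.05. The targeted gene Apc stood at 193, 189 and 208 CPM in WT 1 to 3 and at 161, 159, 146, 144 and 169.6 CPM in tumours 1 to 5. All tumours lay below all WT libraries, and the log2 fold change was -0.34 ± 0.09 (adjusted p = 0.0114). Counts over the whole gene cannot show whether the remaining copy was lost in the tumour epithelium.

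The library labelled tumour 2 went against its tissue label. Gata4, a transcription factor of the duodenum and jejunum, was at 86.3, 97.4 and 99.3 CPM in WT tissue and at 78.4, 90.6, 78.9 and 73.3 CPM in tumours 1, 3, 4 and 5, but at 0.485 CPM in tumour 2. Fabp1, the fatty acid binding protein of proximal enterocytes, was at 2.23 CPM in tumour 2 and at 443 to 1363 CPM in the other tumours. Conversely, Hoxb13, a factor of the hindmost gut, reached 253 CPM in tumour 2 and 0.0466 to 0.949 CPM in the other tumours, and the colonic gene Car1 reached 175 CPM against 0.07203 to 0.617 CPM (Hoxb13, Hoxa13 and Hoxb9 were chosen after their values were seen). Hoxa13 and Hoxb9 were likewise highest in tumour 2, at 34.9 and 20.1 CPM, whereas the other tumours lay at 0 to 0.427 and 0.04995 to 0.237 CPM. WT proximal colon itself held 0.139 to 0.452 CPM of Hoxb13 and 11829 to 23128 CPM of Car1, so tumour 2 was unlike that tissue too. Over all genes tested, tumour 2 correlated with the other tumours at 0.936 to 0.943 (Pearson's r of log2 CPM, across genes). Tumours 1, 3, 4 and 5 correlated with each other at 0.978 to 0.985. Results are therefore given with and without tumour 2 where it bears on them.

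**Figure D1:**
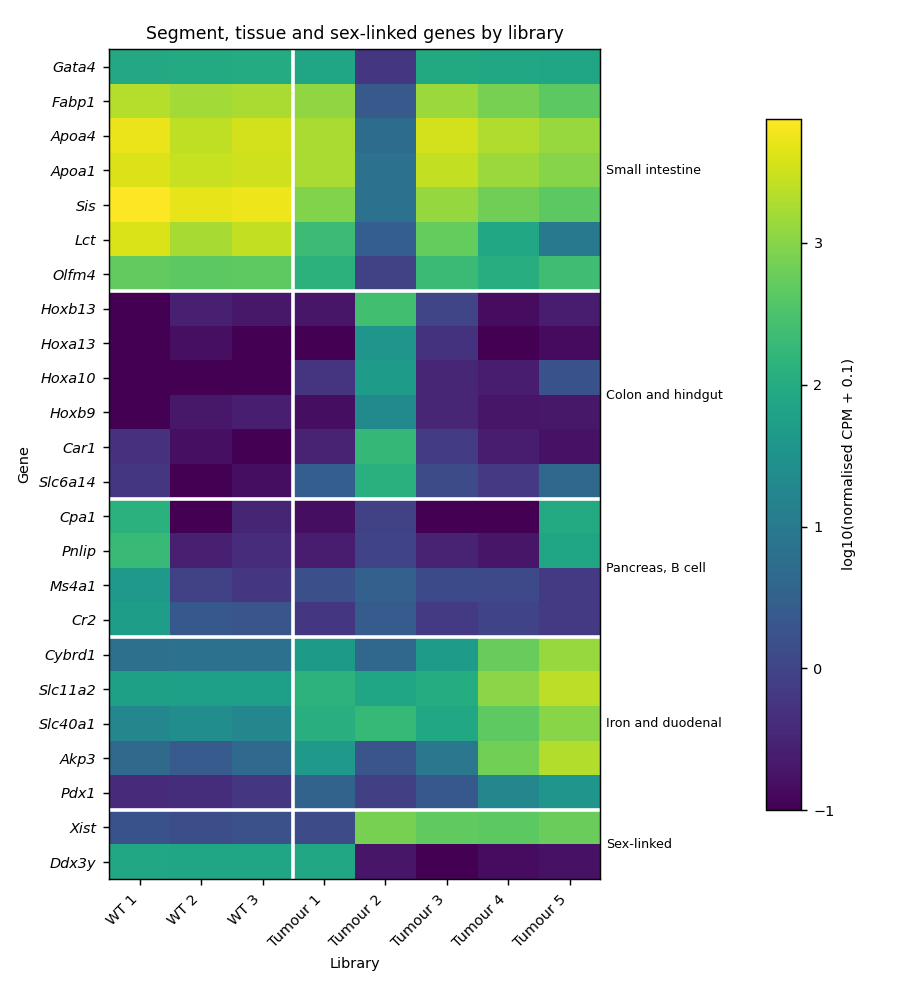
Heat map of marker genes of gut region, pancreas, B cells, iron handling and sex (rows) in each WT and tumour library (columns), coloured from dark (low) to yellow (high) by log10 of normalised CPM plus 0.1. Tumour 2 is the lowest tumour for Gata4 (0.485 CPM) and Fabp1 (2.23 CPM) and the highest for Hoxb13 (253 CPM).

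A few further properties split the libraries and not the groups alone. Cpa1 and Pnlip, digestive enzymes of pancreatic acinar cells, were at 129 and 203 CPM in WT 1 and at 96.4 and 72.7 CPM in tumour 5, while no other library exceeded 1 CPM for either. The summed CPM of 14 acinar genes was 1583 in WT 1, 107 in WT 2 and 133 in WT 3, and 229, 365, 284, 364 and 1358 in tumours 1 to 5. The Y-linked gene Ddx3y was at 79.02, 72.3 and 75.1 CPM in WT 1 to 3 and at 82.6 CPM in tumour 1, and at or under 0.0971 CPM in tumours 2 to 5, where the X-inactivation RNA Xist was at 763, 476, 453 and 574 CPM. By these genes the WT libraries and tumour 1 came from males and tumours 2 to 5 from females, and the part of sex in other differences cannot be told apart from the tumour state in these 4 tumours. In a fit with a term for Y-linked reads, the tumour effect rests on tumour 1, the only tumour with such reads, against WT. Fewer genes were called in that fit, and it cannot separate sex from the tumour state in tumours 2 to 5. Proximal genes did not rank the tumours alike: the duodenal factor Pdx1 was at 17.97 and 36.6 CPM in tumours 4 and 5 against 3.397, 0.728 and 2.09 CPM in tumours 1 to 3, whereas Fabp1 was higher in tumours 1 and 3 (1178 and 1363 CPM) than in tumours 4 and 5 (754 and 443 CPM).

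Of 20567 genes tested, 6461 (31.4%) were higher in the tumours and 6189 (30.1%) were lower. Among these, 2736 rose and 4297 fell by more than 1 on the log2 scale. All 5 tumours lay above all 3 WT libraries for 6144 genes (29.9%) and below them for 6083 (29.6%). Without tumour 2, 7279 of 20351 genes (35.8%) were higher and 7190 (35.3%) lower, and without WT 1, 5796 of 21269 (27.3%) were higher and 5522 (26.0%) lower. Of 20278 genes tested with and without tumour 2, 6358 were higher in both fits, 6138 were lower in both and 0 were called with opposite signs. A gene list is described below by its numbers of higher and lower genes and its median log2 fold change, to be read against these shares and against the median of 0.03 over all genes tested.

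The calls were distributed unequally over classes of gene. Of 15157 protein-coding genes tested, 5740 (37.9%) were higher and 3437 (22.7%) lower. Annotated loci that have yet to be verified by experiment (TEC) were mostly lower, 958 of 1221 (78.5%), with 26 higher. Transcripts lying within introns (sense intronic) were lower in 139 of 166 cases (83.7%) and higher in 2, and 608 of 1041 antisense genes (58.4%) were lower. TEC loci held 0.445% to 0.503% of the reads of a WT library and 0.113% to 0.244% of a tumour's. Malat1, a long RNA that is retained in the nucleus, was at 5471, 6236 and 6535 CPM in WT tissue and at 2512, 5332, 3251, 2463 and 2749 CPM in the tumours. Each tumour lay below each WT library, although tumour 2 approached the WT range, and the log2 fold change was -0.90 ± 0.32 (adjusted p = 0.0357). Strand use in the counting is not stated in the sources used here, so antisense and intronic reads could not be separated from those of their host genes.

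The largest rises outside the Wnt lists included genes that the WT small intestine barely expressed. Gkn3, a gastrokine secreted by mucous cells of the stomach, was at 2.81, 1.597 and 1.87 CPM in WT tissue and at 457, 14.1, 330.1, 884 and 629.5 CPM in tumours 1 to 5. No tumour overlapped WT, and tumour 2 was the lowest tumour. The log2 fold change was 7.78 ± 1.30 (adjusted p = 0.00107), and 8.09 without tumour 2. Gkn1 (ENSMUSG00000030050, chr6:87345650-87350942, minus strand), another gastrokine, was at 0.1003, 0 and 0.0534 CPM in WT tissue, a total of 3 reads, and at 94.4, 0.777, 24.3, 65.9 and 69.8 CPM in the tumours. Of 16 tested genes typical of stomach or Brunner's glands, 15 were higher and 0 lower, with a median of 7.48. The median was 6.96 with the 1 gene that had 0 reads in 1 group set at a bound from the floor of 3 counts. Another 4 genes with 1 to 3 reads in 1 group were left as fitted. Without tumour 2, 15 of 16 were higher. Muc6, a gland mucin, was at 4.16, 5.18 and 5.502 CPM in WT tissue and 362, 12.2, 367, 577 and 574 CPM in the tumours, a log2 fold change of 6.26 ± 1.15 (adjusted p = 0.00168). Ctse, which encodes the gastric protease cathepsin E, was at 3.51, 4.296 and 3.42 CPM in WT tissue and 595, 79.8, 491, 782 and 754 CPM in the tumours (log2 7.17 ± 0.82, adjusted p = 0.000167). The water channel gene Aqp5 was at 0.0501, 0.386 and 0.214 CPM in WT tissue and 56.8, 4.22, 72.3, 131 and 72.5 CPM in the tumours (log2 8.27 ± 1.28, adjusted p = 0.000731). Anxa10 passed the test as well (adjusted p = 0.00295), but its level in tumour 2, 0.291 CPM, lay within the WT range of 0.251 to 0.3205 CPM, against 192 to 280.3 CPM in the other tumours. For each gene of this list named here tumour 2 was the lowest tumour. The stretch of small intestine sampled cannot be told apart from the tumour state in this list either. The duodenal factor Pdx1 was at 0.301 to 0.481 CPM in WT tissue and at 3.397, 0.728, 2.09, 17.97 and 36.6 CPM in tumours 1 to 5.

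Among the other leading rises were genes of secretion, transport and development. Sox21 (ENSMUSG00000061517, chr14:118233232-118237030, minus strand), a transcription factor, had no read in any WT library and stood at 20.5, 29.03, 9.11, 12.6 and 17.1 CPM in the tumours, above the 0.0528 CPM that 3 counts over the WT group would give. An antisense gene overlaps Sox21, and the reads of both could not be told apart. T (ENSMUSG00000062327), which encodes the mesodermal factor brachyury, had 1 WT read and stood at 34.2, 5.78, 25.9, 26.7 and 37.02 CPM in the tumours. Wfdc18, a secreted WAP-domain protein, was at 0.552, 0.551 and 0.588 CPM in WT tissue and 364, 98, 287, 574 and 389.6 CPM in the tumours, which did not overlap, a log2 fold change of 9.23 ± 0.72 (adjusted p = 3.28e-05). Slc38a4, an amino acid transporter, was at 1.304, 1.32 and 1.18 CPM in WT tissue and 407, 21.4, 363, 634 and 389 CPM in the tumours, of which tumour 2 was the lowest (log2 8.16 ± 1.13, adjusted p = 0.000418). Bpifb5, of a family of airway and salivary lipid-binding proteins, was also lowest in tumour 2, with 0.0501, 0.2203 and 0.1602 CPM in WT tissue and 71.1, 2.91, 95.4, 82.6 and 73.9 CPM in the tumours (log2 8.79 ± 1.35, adjusted p = 0.000699). Hoxa9, a positional factor, was at 0.0501, 0.1101 and 0.107 CPM in WT tissue and 12.3, 101, 12, 6.89 and 9.87 CPM in the tumours. It was higher in every tumour than in any WT library, also in the 4 tumours without hindgut markers (6.77 on the log2 scale without tumour 2, adjusted p = 3.72e-06).

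Genes of foetal gut and of regenerating epithelium rose together. Of 19 tested genes of this list, 17 were higher and 0 lower, with a median of 2.85. The list includes genes that the study selected on BA tumours of this series, and 1 of its members, Vsig1, is on the gastric list too. Clu, a secreted chaperone that marks regenerating stem cells, was at 82.3, 13.3 and 11.4 CPM in WT tissue and at 2492, 463, 1660.3, 2299 and 2081 CPM in the tumours. All tumours exceeded all WT libraries, with tumour 2 the lowest of them and WT 1 the highest WT, and the log2 fold change was 5.66 ± 0.96 (adjusted p = 0.00115). Anxa1, a lipid-binding protein of foetal epithelium, was at 15.1, 13.3 and 13.4 CPM in WT tissue and 208, 278, 169, 219 and 158 CPM in the tumours (log2 3.89 ± 0.22, adjusted p = 1.04e-05). Anxa8, Spp1 (osteopontin) and the simple-epithelial keratin Krt7 rose by 5.31, 6.90 and 3.13 on the log2 scale. Of 18 YAP and TEAD target genes tested, 11 were higher and 2 lower (median 0.85), among them Ajuba, a LIM protein, at 2.75, and F3, tissue factor, at 2.48.

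The genes of mature absorptive enterocytes fell. Of 24 tested genes for brush border hydrolases and nutrient transporters, 21 were lower and 0 higher, with a median of -3.08. Their summed CPM was 42656, 31711 and 35984 in WT 1 to 3 and 7152, 1193, 8909, 7038 and 7013 in tumours 1 to 5, and the tumour mean was 0.1702 of the WT mean. Tumour 2 held the least. Without tumour 2, 22 were lower and 1 higher, and without WT 1, 14 were lower. Fewer enterocytes in the tissue and less of these RNAs in each enterocyte cannot be told apart in such libraries, and the same holds for every cell type below.

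Anpep (ENSMUSG00000039062, chr7:79821803-79861059, minus strand), which encodes aminopeptidase N of the brush border, was at 1854, 2977 and 2770.1 CPM in WT tissue and at 117, 10.05, 205, 45.6 and 32.6 CPM in the tumours. The highest tumour lay far below the lowest WT library, and the gene fell by 4.95 ± 0.84 on the log2 scale (adjusted p = 0.00111). Slc5a1, the sodium-glucose cotransporter, was at 3540.2, 2596 and 2969 CPM in WT tissue and at 407, 55.7, 401, 351 and 361 CPM in the tumours (log2 -3.27 ± 0.53, adjusted p = 0.000902). Among the tumours, 1, 3, 4 and 5 lay close together and tumour 2 lower. Lct, lactase, was at 4063, 1711 and 2743 CPM in WT tissue and at 219.5, 2.82, 535, 82.1 and 9.4 CPM in the tumours, which spread widely but did not reach WT (log2 -4.06 ± 1.32, adjusted p = 0.0246). Mgam and Sis, which split starch and sucrose, changed by -3.23 and -3.20, the peptide transporter Slc15a1 by -3.37, the fructose and glucose carrier Slc2a2 by -3.58 and the peptidases Ace and Dpp4 by -3.46 and -3.42 on the log2 scale. Slc5a12, a lactate carrier, had the largest fall under the naming rule, from 382, 280.4 and 388 CPM in WT tissue to 6.14, 0.194, 7.21, 0.419 and 0.432 CPM in the tumours (log2 -6.94 ± 1.04, adjusted p = 0.0006). Enpp7, alkaline sphingomyelinase, and Cubn, the ileal vitamin B12 receptor, had log2 fold changes of -5.84 and -5.00. Alpi, intestinal alkaline phosphatase, did not pass (adjusted p = 0.343): it was at 374 to 791 CPM in WT tissue, at 8.25 CPM in tumour 2 and at 2283 and 2736 CPM in tumours 4 and 5.

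**Figure D2:**
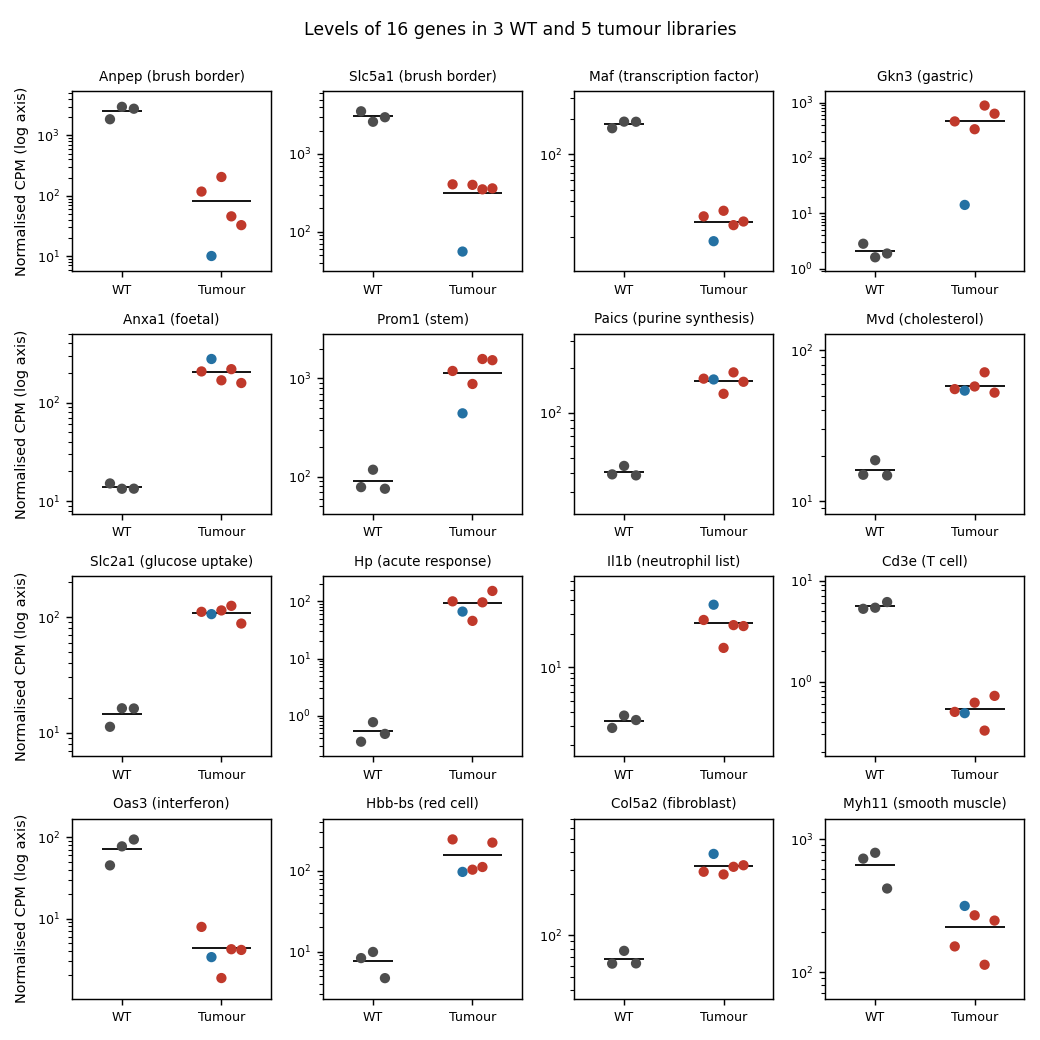
Normalised CPM (log axis) of 16 genes in the 3 WT libraries (grey), tumours 1, 3, 4 and 5 (red) and tumour 2 (blue), with a line at each group mean. Anpep lies between 10.05 and 205 CPM in the tumours and between 1854 and 2977 CPM in WT tissue, while Gkn3 and Hp run the other way.

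Promoter sequence was looked at for these genes, since HNF4 factors activate many brush border genes and bind the word CAAAGTCCA. This word, on either strand, lay within 250 bases before to 50 after the start of 3 of 22 brush border genes with a RefSeq promoter, against 0.494% of all tested genes, 0.683% of lower genes, 0.332% of higher genes and 0.477% of all promoters in the table. The gene Hnf4a itself was not called (log2 -0.21, adjusted p = 0.339), and its relative Hnf4g fell by 2.20 ± 0.58 (adjusted p = 0.01). Shown are the 250 bases before the start of trehalase (Treh, GRCm38.p6 chr9:44672983-44673232, plus strand) and of the amino acid transporter subunit Slc3a1 (chr17:85028097-85028346, plus strand), with the word or its reverse complement in capitals. Both genes were lower, with log2 fold changes of -2.74 and -2.01. A match describes the sequence and is not a binding site.
Treh: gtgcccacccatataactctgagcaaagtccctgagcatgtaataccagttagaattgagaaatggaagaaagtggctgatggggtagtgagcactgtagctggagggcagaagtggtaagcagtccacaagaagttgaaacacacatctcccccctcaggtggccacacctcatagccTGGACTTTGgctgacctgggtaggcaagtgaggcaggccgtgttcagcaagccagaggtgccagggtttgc
Slc3a1: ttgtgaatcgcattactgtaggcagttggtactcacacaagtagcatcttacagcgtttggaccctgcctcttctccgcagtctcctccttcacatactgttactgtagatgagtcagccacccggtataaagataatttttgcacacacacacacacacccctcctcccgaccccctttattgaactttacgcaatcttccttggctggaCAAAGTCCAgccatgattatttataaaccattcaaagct

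Lipid uptake, bile acid and drug-handling genes were more often lower than higher. Of 19 lipid absorption and lipoprotein genes tested, 8 were lower and 2 higher (median -1.33), with 14 lower without tumour 2 and 4 lower without WT 1. Apob, the structural protein of chylomicrons, was at 14859, 9881 and 11203 CPM in WT tissue and 3572, 172, 4891, 2863 and 2377 CPM in the tumours (log2 -2.11 ± 0.76, adjusted p = 0.0377). Here tumour 2 was far below the other tumours. Npc1l1, the cholesterol importer, fell by 3.54, and the lipid droplet and lipoprotein receptor genes Plin2 and Scarb1 rose by 0.66 and 1.55. Of 30 xenobiotic enzymes and their regulators, 16 were lower and 0 higher (median -1.59), with Cyp2b10, a drug-metabolising P450, at -3.92 and the receptor Nr1i2 (PXR) at -1.21. Without WT 1, 9 of 30 were lower, near the 26.0% over all genes in that fit. Among 9 bile acid genes, 4 were lower, including the efflux transporter Abcc2 (-3.24), and 1, the ileal bile acid importer Slc10a2, was higher (2.04). Of 10 gluconeogenesis and fructose genes, 6 were lower and 1 higher, and 3 were lower without WT 1 or WT 3. Pck1, which commits carbon to glucose synthesis, was at 328, 121 and 476 CPM in WT tissue and 101, 28.4, 72.2, 11.7 and 6.59 CPM in the tumours (log2 -2.81 ± 0.83, adjusted p = 0.0164). The call was kept without tumour 2 (adjusted p = 0.0217) and tumours 4 and 5 were lowest.

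Crypt stem cell genes were higher in 17 of 20 cases and lower in 0, with a median of 1.31. Many of them are Wnt targets, and the study's own list of 113 Wnt target genes tested held 81 higher and 9 lower genes (median 0.97). Prom1, a membrane protein of crypt progenitors, was at 78.7, 118 and 75.7 CPM in WT tissue and 1192, 442, 879, 1577 and 1534 CPM in the tumours, all above WT (log2 3.63 ± 0.46, adjusted p = 0.000273). The stem cell receptor Lgr5, the ephrin receptor Ephb3 and the crypt transcription factor Sox9 rose by 2.41, 2.98 and 2.09. Olfm4, a secreted stem cell marker, was not called (adjusted p = 0.159), with 497, 448 and 460.2 CPM in WT tissue and 136, 0.777, 213, 109.9 and 239.5 CPM in the tumours. All tumours lay below WT for Olfm4, tumour 2 by far the most, and without it the log2 fold change of -1.42 passed the test (adjusted p = 0.000917). Among negative feedback genes of the pathway, 14 of 15 rose and 1 fell.

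Secretory lineages did not move as 1 block. Of 19 Paneth cell genes tested, 10 were lower and 3 higher (median -1.68). Ang4, an antimicrobial ribonuclease, was at 199, 208 and 165 CPM in WT tissue and 18.6, 47.6, 42.9, 20.9 and 20.8 CPM in the tumours (log2 -2.66 ± 0.33, adjusted p = 0.00024). The defensin gene Defa24 fell by 2.32, although 48.2% of its 36-base words are shared with other defensin genes and its reads are uncertain, whereas the Wnt target Mmp7, which activates defensins, rose by 1.02. Of 18 goblet cell genes, 6 were higher (33.3%) and 5 lower (27.8%), near the 31.4% and 30.1% over all genes tested. Muc2, the main intestinal mucin, changed by -0.87 (adjusted p = 0.0162) and the goblet factor Spdef by 2.01 (adjusted p = 0.00079). Of 22 enteroendocrine genes, 14 were lower and 1 higher (median -1.38). The hormone genes Nts, Gcg and Sst (neurotensin, proglucagon and somatostatin) were lower, with log2 fold changes of -3.85, -2.94 and -2.06. Pyy, peptide YY, was the gene that rose, at 0.702, 1.05 and 0.694 CPM in WT tissue and 1.499, 24.8, 2.61, 2.75 and 5.15 CPM in the tumours. Of 18 tuft cell genes, 7 were lower and 2 higher, and the actin bundler Avil rose from 11.3, 7.71 and 12.1 CPM to 309.7, 126, 188, 294 and 282 CPM (log2 4.53 ± 0.37, adjusted p = 3.95e-05) while the tuft channel gene Trpm5 was not called (adjusted p = 0.779).

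Transcription factors of intestinal identity differed in direction. Of 24 tested, 4 were higher (16.7%) and 6 lower (25%), both under the 31.4% and 30.1% over all genes tested. Without tumour 2, 4 were higher and 12 lower (50%), against 35.8% and 35.3% over all genes in that fit. Maf, which controls absorptive genes along the villus, was at 166, 188 and 188 CPM in WT tissue and 29.8, 18.4, 33.2, 25.1 and 26.98 CPM in the tumours (log2 -2.76 ± 0.17, adjusted p = 1.35e-05). No tumour reached a WT library. The vitamin D receptor Vdr and the nuclear receptor Nr5a2 had log2 fold changes of -1.73 and -1.22, whereas the foregut factors Foxa1, Foxa2 and Foxa3 rose by 2.05, 2.35 and 1.78. Cdx2, the master factor of intestinal fate, was at 83.5 to 88.9 CPM in WT tissue and 32.1 to 116 CPM in the tumours and was not called (adjusted p = 1).

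**Figure D3:**
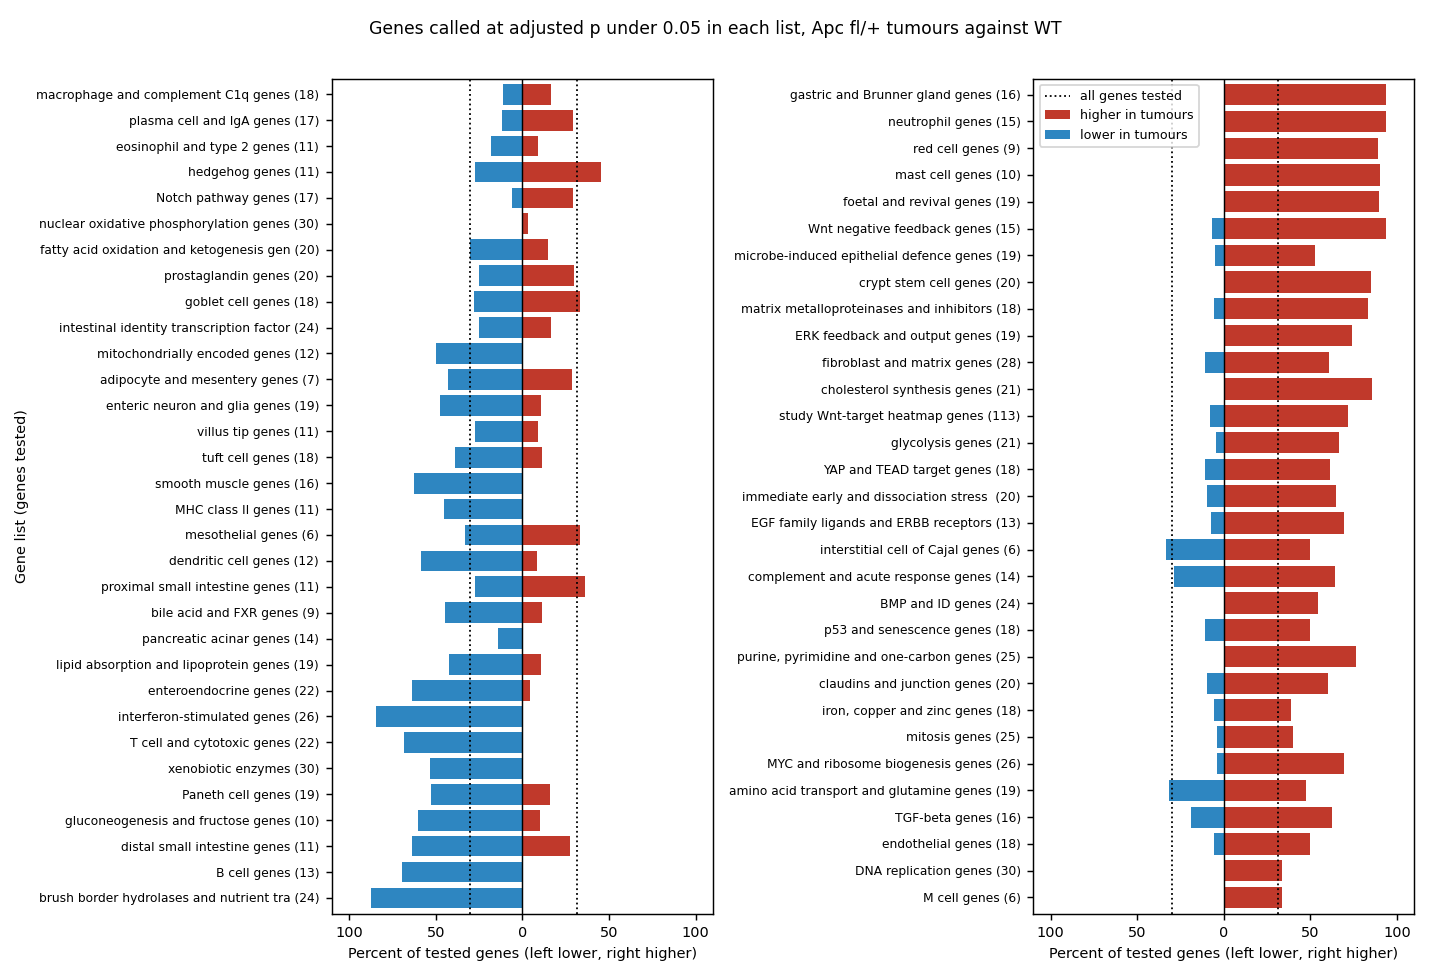
Percent of tested genes higher (right) and lower (left) in the tumours for each of 63 gene lists, with dotted lines at the shares over all genes tested, 31.4% and 30.1%. The gastric, neutrophil and foetal lists are almost wholly higher, and the brush border, interferon-stimulated and T cell lists almost wholly or mostly lower.

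Proliferation genes differed by modest amounts. Of 30 DNA replication genes tested, 10 were higher and 0 lower (median 0.35), a share close to the 31.4% of all genes, and the count of higher genes was 19 without tumour 2 and 6 without WT 1 or any of tumours 1, 3 and 4. Pcna, the polymerase clamp, was at 91.1, 101 and 89.4 CPM in WT tissue and 179, 123, 180.1, 194 and 171 CPM in the tumours (log2 0.85 ± 0.15, adjusted p = 0.00132). Mitosis genes were higher in 10 of 25 cases (17 without tumour 2) and lower in 1, and the lower gene was the proliferation antigen Mki67, with 246, 359 and 333 CPM in WT tissue and 239, 169.5, 232, 238 and 233 CPM in the tumours (log2 -0.49 ± 0.16, adjusted p = 0.0265). MYC and ribosome biogenesis genes were higher in 18 of 26 cases and lower in 1. Myc, Mycn and Mycl rose by 0.94, 2.62 and 2.02, and Max, the partner that MYC proteins need to bind DNA, was the gene that fell (-1.23). Among p53 and senescence genes, 9 of 18 were higher, with the p53 target Phlda3 at 2.21, and 2 were lower, with the cell cycle inhibitor Cdkn1a at -0.62.

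Lists of nucleotide, sterol and sugar metabolism held larger shares of higher genes than the 31.4% over all genes tested. Of 25 purine, pyrimidine and one-carbon genes, 19 were higher and 0 lower (median 0.60). Paics, an enzyme of purine synthesis, was at 39.2, 44.6 and 38.6 CPM in WT tissue and 169, 167, 134, 186 and 161 CPM in the tumours (log2 2.00 ± 0.12, adjusted p = 1.46e-05). Of 21 cholesterol synthesis genes, 18 were higher and 0 lower (median 1.02). Mvd, which makes the isoprenoid unit of sterols, was at 14.9, 18.7 and 14.8 CPM in WT tissue and 55.4, 54.1, 57.7, 71.6 and 52.5 CPM in the tumours (log2 1.85 ± 0.14, adjusted p = 3e-05). Fdft1, Cyp51 and Lss, later enzymes of the pathway, rose by 1.87, 1.53 and 1.22, and the regulator Srebf2 by 0.60. Glycolysis genes were higher in 14 of 21 cases and lower in 1 (median 0.92). Slc2a1, the glucose transporter GLUT1, was at 11.2, 16.2 and 16.2 CPM in WT tissue and 111, 106, 114, 125 and 87.9 CPM in the tumours (log2 2.90 ± 0.17, adjusted p = 1.24e-05). The groups did not overlap for Paics, Mvd or Slc2a1, and tumour 2 lay among the other tumours for all of them. The kinases Hk2 and Pfkl and the lactate exporter Slc16a3 rose by 1.81, 2.43 and 2.30, and Pfkfb3, a glycolytic regulator, fell by 1.21. By contrast, 1 of 30 nuclear genes of oxidative phosphorylation was higher and 0 lower, with a median of 0.01, and without tumour 2, 6 were higher and 3 lower. Of 12 mitochondrially encoded genes, 6 were lower and 0 higher (median -0.50). Among fatty acid oxidation genes, 3 of 20 were higher and 6 lower. The lower ones included the coactivator Ppargc1a, at -2.82.

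Of 14 cholesterol genes with a RefSeq promoter, 13 (92.9%) held the word CCAAT, which NF-Y binds, on either strand within the same 300-base window. Other lists held it as often, 18 of 20 mitosis genes (90.0%) and 7 of 8 MHC class II genes (87.5%), of which the latter were higher in 0 cases. It is a short and common word, held by 38.0% of the promoters of all tested genes, by 38.4% of those of higher genes and by 37.9% of all promoters in the table. The other words searched, on both strands, were held by these shares of higher and lower genes: the TCF/LEF word CTTTGAT by 2.76% and 2.89% (all tested 2.75%), the E-box CACGTG by 10.1% and 8.46% (9.39%) and the E2F word TTTCGCG by 1.83% and 1.04% (1.47%). The 250 bases before the start of 3 called genes are shown for their CCAAT words, with the word or its reverse complement in capitals: Mvd (GRCm38.p6 chr8:122443423-122443672, minus strand), Cyp51 (chr5:4104698-4104947, minus strand) and Lss (chr10:76531355-76531604, plus strand).
Mvd: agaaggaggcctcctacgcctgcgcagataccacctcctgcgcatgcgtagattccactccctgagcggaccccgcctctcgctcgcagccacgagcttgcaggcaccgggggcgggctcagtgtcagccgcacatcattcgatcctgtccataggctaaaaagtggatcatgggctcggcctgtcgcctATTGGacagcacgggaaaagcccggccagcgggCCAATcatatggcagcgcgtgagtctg
Cyp51: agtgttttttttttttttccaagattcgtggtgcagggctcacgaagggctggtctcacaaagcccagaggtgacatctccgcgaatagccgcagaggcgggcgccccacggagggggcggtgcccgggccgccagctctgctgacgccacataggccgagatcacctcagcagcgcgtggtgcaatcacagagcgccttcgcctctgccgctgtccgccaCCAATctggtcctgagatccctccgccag
Lss: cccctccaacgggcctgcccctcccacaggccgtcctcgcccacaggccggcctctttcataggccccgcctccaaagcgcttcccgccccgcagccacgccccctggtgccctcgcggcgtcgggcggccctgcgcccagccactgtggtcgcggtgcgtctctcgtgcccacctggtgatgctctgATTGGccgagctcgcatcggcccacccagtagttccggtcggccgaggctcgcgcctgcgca

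Several signalling lists other than Wnt held a larger share of higher genes than the 31.4% over all genes tested, but the Notch and prostaglandin lists did not. ERK output genes rose in 14 of 19 cases and fell in 0 (median 1.11). Etv5, an ERK-induced factor, was at 5.82, 8.81 and 8.39 CPM in WT tissue and 114, 94.3, 113, 140.5 and 179 CPM in the tumours (log2 4.06 ± 0.27, adjusted p = 1.76e-05), and the phosphatase Dusp4 rose by 2.96. Of 13 EGF family ligands and receptors, 9 were higher and 1 lower, with the ligands Ereg, Btc and Tgfa at 2.52, 2.46 and 1.22 and the receptor Erbb3 at -0.52. BMP and ID genes were higher in 13 of 24 cases and lower in 0. The ligand genes Bmp4 and Bmp7 rose by 1.40 and 2.37, the secreted antagonist Grem1 by 1.84 and the target genes Id1 and Id3 by 1.78 and 1.77. In the Notch list 5 of 17 rose (29.4%) and 1 fell. The Notch target gene Hes1 was at 20.2, 23.9 and 22.7 CPM in WT tissue and 74.6, 85.6, 80.6, 77.3 and 68.7 CPM in the tumours (log2 1.8 ± 0.10, adjusted p = 1.14e-05). The ligand gene Dll1 fell by 1.14. Of 16 TGF-beta genes, 10 were higher and 3 lower, with the activin subunit Inhba at 3.67, the receptor Tgfbr2 at 1.25 and the co-receptor Tgfbr3 at -1.05. Hedgehog genes were mixed, 5 higher and 3 lower of 11. Of 20 prostaglandin genes, 6 were higher (30%) and 5 lower (25%), near the 31.4% and 30.1% over all genes tested. Ptgs2, the inducible cyclooxygenase, was at 4.11, 4.13 and 4.86 CPM in WT tissue and 25.2, 36.7, 56.6, 64.2 and 52.1 CPM in the tumours (log2 3.43 ± 0.33, adjusted p = 7.59e-05), and Hpgd, the enzyme that inactivates prostaglandins, fell by 2.00.

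Of 19 genes that epithelium induces on contact with microbes, 10 were higher and 1 lower (median 2.42). Lcn2, an iron-sequestering defence protein, was at 1.504, 2.09 and 1.34 CPM in WT tissue and 145, 49.6, 69.95, 105 and 214 CPM in the tumours (log2 6.15 ± 0.60, adjusted p = 8.21e-05). All tumours were above WT. Hp, the haemoglobin-binding protein haptoglobin, was at 0.351, 0.771 and 0.481 CPM in WT tissue and 99.8, 66.1, 45.5, 95.96 and 152 CPM in the tumours (log2 7.42 ± 0.54, adjusted p = 2.57e-05). In the complement and acute response list 9 of 14 were higher and 4 lower (median 0.62), and Il22ra2, a soluble decoy for interleukin 22, fell by 4.00. Of 18 matrix metalloproteinase and inhibitor genes, 15 were higher and 1 lower (median 1.30), with the membrane protease Mmp14 at 2.51 and the inhibitor Timp1 at 4.08. Mmp10, stromelysin 2, was at 37.4, 42.96 and 42.7 CPM in WT tissue and 291, 201, 256, 400.2 and 263 CPM in the tumours (log2 2.78 ± 0.23, adjusted p = 3.89e-05). Claudin and junction genes were higher in 12 of 20 cases and lower in 2. The crypt claudin Cldn2 and the barrier claudin Cldn4 rose by 2.47 and 2.76, and the villus claudin Cldn15 fell by 1.74.

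Markers of immune cells moved in both directions. Neutrophil genes were higher in 14 of 15 cases and lower in 0, with a median of 4.45, and their summed CPM was 36.8, 56.1 and 38.4 in WT 1 to 3 and 430.1, 310.1, 179, 302 and 687 in tumours 1 to 5. Il1b, interleukin 1 beta, was at 2.86, 3.69 and 3.37 CPM in WT tissue and 26.7, 36.6, 14.99, 24.02 and 23.6 CPM in the tumours (log2 2.93 ± 0.29, adjusted p = 8.63e-05), and the neutrophil attractant Cxcl5 rose by 4.95. Mast cell genes were higher in 9 of 10 cases, with summed CPM of 23.6, 23.1 and 18.4 in WT tissue and 82.2, 94.8, 77.6, 95.6 and 199.7 in the tumours, of which tumour 5 was the highest. The mucosal mast cell protease gene Mcpt2 rose by 5.11 ± 0.66 (adjusted p = 0.000292). Of 18 macrophage genes 3 were higher and 2 lower, with Trem2, a receptor of lipid-laden macrophages, at 3.44 and the growth factor receptor Csf1r at -0.72.

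T cell and cytotoxic genes were lower in 15 of 22 cases and higher in 0 (median -1.53), and their summed CPM was 228, 207 and 229.7 in WT tissue and 75.6, 41.8, 54.8, 59.4 and 78.7 in the tumours. Cd3e, a chain of the T cell receptor complex, was at 5.26, 5.397 and 6.14 CPM in WT tissue and 0.4995, 0.485, 0.617, 0.326 and 0.7203 CPM in the tumours (log2 -3.38 ± 0.24, adjusted p = 2.35e-05). Every tumour was low and none reached a WT library. Cd8a, the receptor Cd160 of intraepithelial lymphocytes, the granzyme gene Gzmb and the chemokine gene Ccl5 were lower as well, with log2 fold changes of -2.93, -2.95, -2.77 and -3.36. Dendritic cell genes were lower in 7 of 12 cases and higher in 1. B cell genes were lower in 9 of 13 cases, but their summed CPM was 562 in WT 1 against 66.4 and 59.7 in WT 2 and 3 and 45.3, 81.9, 45.8, 38.1 and 43.1 in the tumours. Without WT 1, 3 of 13 were lower (median -0.48). The plasma cell list held 5 higher and 2 lower genes of 17, and the IgA constant gene Igha was not called (log2 0.17, adjusted p = 0.644). Of 11 MHC class II genes 5 were lower, and 1 without WT 1.

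Interferon-stimulated genes were lower in 22 of 26 cases and higher in 0 (median -1.49). Oas3, which makes the second messenger of RNA decay in virus-infected cells, was at 45.2, 77.5 and 94.2 CPM in WT tissue and 7.89, 3.35, 1.85, 4.19 and 4.11 CPM in the tumours (log2 -4.08 ± 0.41, adjusted p = 9.43e-05). WT 1 was the lowest WT library and still lay above every tumour. Isg15, Ifit1 and Irf7, an interferon-induced modifier, RNA-binding protein and transcription factor, had log2 fold changes of -3.19, -2.81 and -1.78. The count was 22 of 26 without tumour 2 and 22 of 26 without WT 1.

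Red cell genes were higher in 8 of 9 cases, with summed CPM of 18.9, 28.97 and 14.1 in WT tissue and 431, 176, 186, 207 and 398 in the tumours. Hbb-bs, a beta globin gene, was at 8.32, 9.91 and 4.7 CPM in WT tissue and 245, 97.1, 103, 112 and 224 CPM in the tumours (log2 4.35 ± 0.47, adjusted p = 0.000128), although 54.1% of its 36-base words are shared with other globin genes. The summed red cell and neutrophil genes were both highest in tumours 1 and 5, and the part of blood in the neutrophil counts was not tested.

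In the stroma, matrix genes were mostly higher and muscle genes mostly lower. Fibroblast and matrix genes were higher in 17 of 28 cases and lower in 3 (median 1.1). Col5a2, a fibrillar collagen chain, was at 62.1, 76.9 and 62.4 CPM in WT tissue and 289, 389.6, 276, 314 and 322 CPM in the tumours, well apart (log2 2.24 ± 0.15, adjusted p = 1.96e-05). Lox, which cross-links collagen, and the basement membrane gene Col4a1 rose by 4.06 and 1.78, whereas Fbln1 and Col14a1, a fibulin and a fibril-associated collagen, had log2 fold changes of -1.20 and -0.91. Fn1, fibronectin, reached 1009.8 CPM in tumour 2 against 211 to 298 CPM in the other tumours and 187 to 248 CPM in WT tissue, and was not called. Endothelial genes were higher in 9 of 18 cases, with Vwf, the platelet-binding factor of vessels, at 2.09, and the 1 lower gene was Flt4, the lymphatic growth factor receptor (-0.69). Smooth muscle genes were lower in 10 of 16 cases and higher in 0. Myh11, smooth muscle myosin, was at 715, 791 and 426 CPM in WT tissue and 157, 316, 268, 114 and 245 CPM in the tumours (log2 -1.55 ± 0.34, adjusted p = 0.00386). Enteric neuron and glia genes were lower in 9 of 19 cases and higher in 2, with the glial factor Sox10 at -1.61. How much muscle wall the samples held is not given in the sources used here and cannot be told apart from the tumour state.

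**Figure D4:**
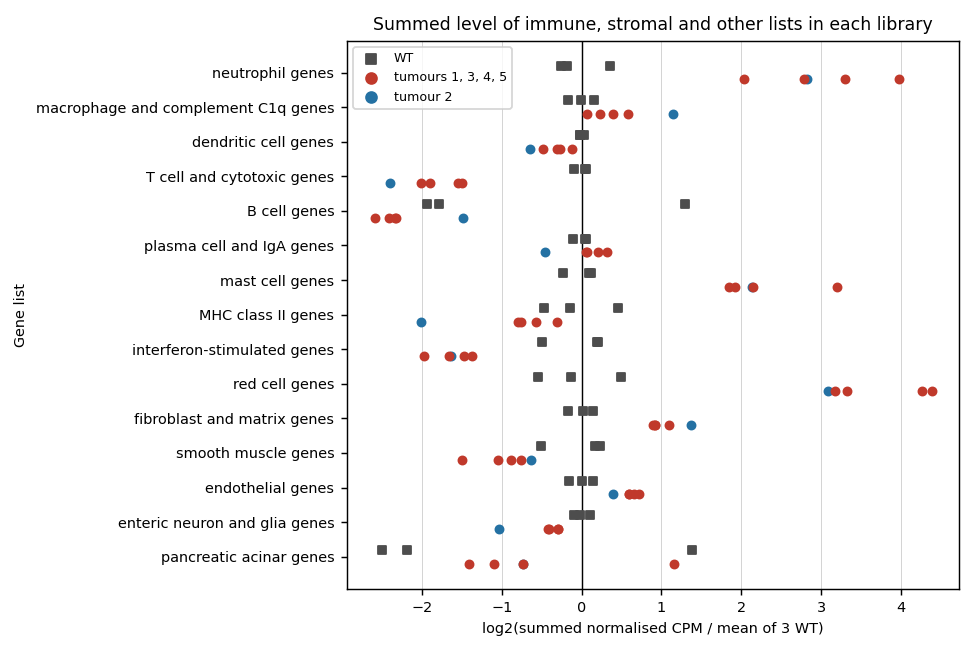
Log2 of the summed CPM of 15 gene lists in each library over the mean of the 3 WT libraries, with tumour 2 in blue. All tumours lie apart from WT for the neutrophil, red cell, mast cell and T cell lists, and WT 1 is the highest library for the B cell and pancreatic lists.

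Immediate early and stress genes, which rise when tissue is handled, were higher in 13 of 20 cases and lower in 2 (median 0.80), with Jun at 1.68 and Fos not called (log2 0.15, adjusted p = 0.672). The part of tissue handling in other differences was not tested. A few lists of other cells were short. Their counts are to be read against the 31.4% higher and 30.1% lower over all genes tested. Eosinophil genes held 1 higher and 2 lower of 11, villus tip genes 1 and 3 of 11, M cell genes 2 and 0 of 6 and mesothelial genes 2 and 2 of 6. Adipocyte genes held 2 higher and 3 lower of 7, and genes of interstitial cells of Cajal 3 and 2 of 6. Amino acid transport and glutamine genes were higher in 9 of 19 cases and lower in 6. Ass1, which makes the arginine precursor, was at 5.47, 7.55 and 6.41 CPM in WT tissue and 28.2, 27.5, 26.99, 33.3 and 28.3 CPM in the tumours (log2 2.16 ± 0.14, adjusted p = 1.76e-05).

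In CPM, the tumours gained most in genes of translation and of simple epithelium, and lost most in digestive genes. CPM are not corrected for gene length, so this order is one of reads and not of molecules. Eef1a1, an elongation factor, was at 3679, 3519 and 3068 CPM in WT tissue and 7911, 6266, 6895, 7774 and 7196 CPM in the tumours (log2 1.07 ± 0.27, adjusted p = 0.0076). Eef2 and the ribosomal protein gene Rplp0 rose by 0.89 and 1.26, the keratin genes Krt8 and Krt19 by 0.94 and 1.28, and Dmbt1, a secreted mucosal defence protein, by 1.18 (adjusted p = 0.0333). The other genes with the largest gains were Clu and Prom1, and the largest losses were in Apob, Mgam, Sis, Fcgbp, Malat1, Slc5a1, Lct and Anpep. Fcgbp, a goblet cell protein of the mucus layer, was at 8026, 5455 and 10118 CPM in WT tissue and 4149, 1673, 4303, 3890.1 and 4963 CPM in the tumours (log2 -1.05 ± 0.39, adjusted p = 0.0418).

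The tumours differed among themselves, mostly through tumour 2. Over 11249 genes with an average log2 CPM of at least 3, the median SD of log2 CPM was 0.189 over the 5 tumours, 0.114 over tumours 1, 3, 4 and 5 and 0.137 over the 3 WT libraries. The 12 most variable genes over the 5 tumours were Akp3, Apoa4, Fabp1, Xist, Prap1, Anxa10, Reg1, Sult6b2, Apoa1, Tff2, Alpi and Ctrb1. Akp3, a duodenal alkaline phosphatase, was at 4.76, 2.42 and 4.49 CPM in WT tissue and 43.6, 1.796, 8.39, 679.6 and 2065 CPM in the tumours. Tumours 4 and 5 stood out, and tumour 2 lay below the WT range. Tff2, a trefoil peptide of gastric and Brunner's gland mucus, showed the same order at 16.5, 0.388, 15.4, 181 and 429 CPM. A pair of iron transporters was also highest in tumours 4 and 5. The duodenal iron importer Slc11a2 was at 58.1, 56.3 and 57.7 CPM in WT tissue and 144, 77.2, 104, 1084 and 2445 CPM in the tumours, and the iron exporter Slc40a1 at 18.2, 24.3 and 17.6 and 116, 186, 83.7, 466 and 1003 CPM. Of 18 iron, copper and zinc genes 7 were higher and 1 lower, and 4 were higher without any 1 of the WT libraries. Genes of the proximal small intestine were higher in 4 and lower in 3 of 11 cases, and those of the distal part higher in 3 and lower in 7 of 11, and the stretch sampled cannot be told apart from the tumour state in these lists. Without WT 1 or WT 2, 1 proximal gene was higher, and without tumour 2, 7 were lower.

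Some calls rested on single libraries. Of 158 genes named here that were tested and called, 23 lost the call when 1 of the 8 libraries was left out, all with the direction kept. For Apc, Muc2 and Pck1 that library was WT 3 (adjusted p = 0.057, 0.0846 and 0.0641). For Mki67 and Tff2 it was WT 2 or WT 3 (adjusted p up to 0.124 and 0.0801), for Mug1 WT 1 or WT 3 (0.0546) and for Pdx1 WT 1 or WT 2 (0.0561). Any WT library removed the calls of Akp3, Pyy and Scarb1 (up to 0.0908, 0.0802 and 0.0689), and WT 1, WT 3 or 1 tumour those of Lct, Sis, Slc3a1 and Treh (up to 0.0654, 0.0627, 0.072 and 0.0658). The calls of Apob, Cdkn1a, Col14a1, Dmbt1, Erbb3, Fcgbp, Krt8, Malat1 and Slc11a2 were lost in 5 to 7 of the 8 fits, with adjusted p up to 0.157. Conversely, 8 genes gained a call without tumour 2, among them Alpi (log2 1.64, adjusted p = 0.00438) and Gata4 (-0.23, adjusted p = 0.0424), and Ncl gained one without WT 1 (-0.53, adjusted p = 0.00424).

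With a term for Y-linked reads, where the tumour effect rests on tumour 1, 94 summary values moved and 99 stayed the same. List counts were among them. Leaving out 1 library moved 10 to 37 of such values per fit, and counts per list moved as well. Lower genes ranged over the 8 such fits from 4 to 14 for lipid absorption, from 9 to 21 for xenobiotic enzymes, from 3 to 9 for gluconeogenesis, from 9 to 18 for enteroendocrine, from 4 to 8 for tuft and from 1 to 7 for goblet cell genes. They ranged from 5 to 12 for intestinal transcription factors, from 2 to 6 for fatty acid oxidation and for mitochondrially encoded genes, from 2 to 8 for amino acid transport, from 5 to 13 for smooth muscle, from 3 to 15 for B cell and from 1 to 7 for MHC class II genes. Higher genes ranged from 6 to 19 for DNA replication, from 7 to 17 for mitosis, from 12 to 20 for purine and pyrimidine synthesis, from 4 to 9 for iron and from 3 to 6 for plasma cell genes. The lowest counts came without WT 1 for lipid, xenobiotic, purine, fatty acid, amino acid, B cell and MHC class II genes and without WT 2 for smooth muscle, and the highest without tumour 2 for lipid, DNA replication, mitosis and transcription factor genes.

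Short reads limit what the counts of some genes mean. Of 182 genes named in the text or its closing part, 19 shared more than 10% of their 36-base words with another gene, and how such reads were counted is not stated in the sources used here. Besides Defa24 and Hbb-bs these were Eef1a1 (47.5%), Ass1 (41.9%), Rplp0 (40.4%), Krt8 (30.42%), Etv5 (28.7%), Pcna (22.1%), Car1 (17.98%), Eef2 (15.95%), Cyp2b10 (15.7%), Spp1 (13.5%), Fdft1 (12.8%), Mmp10 (10.8%), Fcgbp (10.2%) and 4 genes given at the end, and their values are uncertain by that part. A further limit is that 37 of the 182 had an exon of another gene on the opposite strand. Among them were Sox21, Avil, Maf, Malat1, Il1b, Cd3e, Jun, Prom1 and Slc2a1, and the reads of the partners could not be told apart.

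The tumours were next compared with acute Apc loss, by testing whether the tumour effect differed from the effect of Apc fl/fl against WT at day 4, each against its own controls. Of 22202 genes tested, the difference was above 0 for 2759 (12.4%) and below 0 for 2727 (12.3%). In the acute comparison alone, 4816 of 17536 genes (27.5%) were higher and 4688 (26.7%) lower. The groups of the 2 effects also differ in labelled background and in kind of sample, tumour or tissue. Both day 4 groups were mixed in sex, with Xist at 0.124 to 561 CPM in WT and 0.378 to 778 CPM in Apc fl/fl. Pdx1 was at 0.888 to 31.7 CPM in WT day 4 tissue and at 0.301 to 0.481 CPM in WT 1 to 3. The part of sex and of the stretch sampled in the differences was not tested. Replicate 1 of Apc fl/fl held 516985 reads, and without replicates 1 and 8 of that group the difference was above 0 for 4048 genes and below 0 for 3496. This split depended on scaling: with the size factors of DESeq2 in edgeR 2100 genes lay above 0 and 3458 below, and the median difference over all genes moved from -0.02 to -0.16. Without WT 3 the difference was above 0 for 1837 genes and below 0 for 1766. DNA replication genes rose after acute loss in 29 of 30 cases (median 1.23) and in 10 of 30 in the tumours (median 0.35), and the difference was below 0 for 17 and above 0 for 0. Without tumour 2, 12 were below 0. For Pcna, at 0.85 in the tumours and 0.84 after acute loss, a difference was not detected (-0.02 ± 0.23, adjusted p = 0.969). MYC and ribosome biogenesis genes had 1 difference above 0 and 13 below. Ncl, nucleolin, was not called in the tumours (log2 -0.27) and rose by 1.37 after acute loss, a difference of -1.68 ± 0.36 (adjusted p = 0.00196). Interferon-stimulated genes had 0 above and 15 below (14 without tumour 2), and Oas3 was at 9.95 to 181 CPM in Apc fl/fl and 55.2 to 117 CPM in WT day 4 tissue, a difference of effects of -4.08 ± 0.74 (adjusted p = 0.000416).

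In the other direction, neutrophil genes had 12 differences above 0 and 0 below, with and without tumour 2 alike, fibroblast genes 13 and 0, and endothelial genes 12 and 0. Glycolysis genes had 13 above 0 and 0 below, with Slc2a1 at 2.90 in the tumours and 0.70 after acute loss (difference 2.15 ± 0.35, adjusted p = 0.000181). BMP and ID genes had 14 above 0 and 0 below, and cholesterol genes 9 and 0. Stomach and Brunner's gland genes rose after acute loss as well, in 6 of 9 cases, and fell in 0 (median 3.07). For 16 such genes the difference was above 0 in 3 cases (4 without tumour 2) and below 0 in 0. Brush border genes fell in both settings, in 23 of 24 cases after acute loss and in 21 of 24 in the tumours, and 7 differences were below 0. Slc5a12 was at 30.8 to 229 CPM in Apc fl/fl and 48.5 to 216 CPM in WT day 4 tissue, and its effects differed by -6.87 ± 0.95 (adjusted p = 3.28e-05). Hp, which rose in the tumours, was at 0 to 44.1 CPM in Apc fl/fl and 0.2397 to 34.9 CPM in WT day 4 tissue, and the difference was 7.53 ± 2.24 (adjusted p = 0.0169), a call that was lost without WT 1, WT 2 or WT 3 (adjusted p from 0.0522 to 0.0604). Of the study's Wnt targets, 102 of 113 rose after acute loss, and the differences were above 0 for 9 and below 0 for 22. Wif1, a secreted Wnt inhibitor, was at 0.602, 0.3304 and 0.855 CPM in WT 1 to 3, 114, 166, 109.6, 131 and 219 CPM in the tumours and 0 to 0.989 CPM in Apc fl/fl and 0.337 to 1.36 CPM in WT day 4 tissue, with a difference of 7.94 ± 0.60 (adjusted p = 2.41e-08).

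BA tumours arise in the proximal colon through BRAF activation and loss of the TGF-beta receptor ALK5, and the study describes them as low in Wnt signalling. The tumour effect differed from the BA effect, each against its own tissue, upwards for 3844 of 21668 genes (17.7%) and downwards for 4752 (21.9%). In BA tumours alone 1431 of 19188 genes (7.46%) were higher and 1096 (5.71%) lower. The organ differs between these effects and cannot be told apart from the mutations. Sex differs as well. Ddx3y was at 0 to 0.186 CPM in WT proximal colon and at 0.124 to 77.6 CPM (median 51.9) in BA tumours. In the Apc fl/+ comparison it was the WT libraries that held Ddx3y, at 72.3 to 79.02 CPM, and most tumours that lacked it. The part of sex in the differences below cannot be told apart either. Nuclear genes of oxidative phosphorylation were lower in 15 of 30 cases in BA tumours (median -1.11) and in 0 in the Apc fl/+ tumours (3 without tumour 2), and the difference was above 0 for 18 genes and below 0 for 0 (above 0 for 25 without tumour 2). Fatty acid oxidation genes showed a like split, with 12 differences above 0 and 1 below. Of 24 brush border genes 0 were above 0 and 15 below, and of 22 T cell genes 0 and 11. Of 16 B cell genes 0 were above 0 and 16 below. In BA tumours 13 of these 16 were higher (median 2.54), while the fall of B cell genes in the Apc fl/+ tumours depended on WT 1. Of 26 interferon-stimulated genes 0 were above and 14 below, while crypt stem cell genes were 12 and 0, red cell genes 7 and 0, and the Wnt targets 52 and 6.

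Neutrophil and foetal genes rose in both kinds of tumour. In BA tumours 13 of 15 neutrophil genes were higher (median 4.32), and the difference was above 0 for 1 and below 0 for 1. Of 19 foetal and revival genes 15 were higher there, on which part of the list was chosen, and the difference was above 0 for 2 and below 0 for 2. Stomach and Brunner's gland genes rose in BA tumours in 5 of 10 cases and fell in 0 (median 3.60). For 17 such genes the difference was above 0 in 4 cases (7 without tumour 2) and below 0 in 1. In WT proximal colon Cd3e stood at 0.194 to 1.65 CPM, against 0.511 to 1.498 CPM in BA tumours, and its effects differed by -4.07 ± 0.78 (adjusted p = 0.0016). Slc2a1 rose by 2.90 in the Apc fl/+ tumours and changed by 0.92 in BA tumours (difference 1.95 ± 0.29, adjusted p = 0.000325). S100g, a calcium-binding protein of the duodenum, was at 2.36, 2.75 and 4.91 CPM in WT small intestine, and 341, 5.24, 118, 177 and 277 CPM in the tumours. The colon libraries held 38.7 to 59.6 CPM (WT proximal colon) and 0.2902 to 1.18 CPM (BA tumours). It changed by 5.78 in the Apc fl/+ tumours and by -6.56 in BA tumours, a difference of 12.34 ± 1.42 (adjusted p = 6.9e-05). Without tumour 2 that difference was 12.79 (adjusted p = 2.01e-07).

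**Figure D5:**
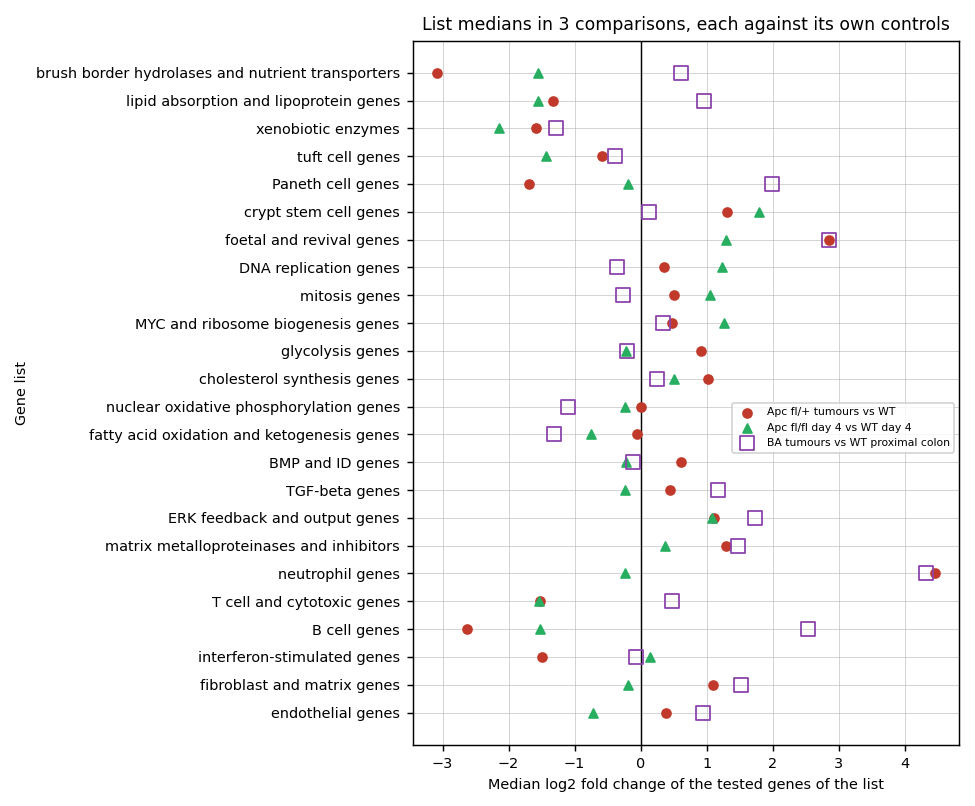
Median log2 fold change of 24 gene lists in Apc fl/+ tumours (circles), Apc fl/fl tissue at day 4 (green triangles) and BA tumours (hollow purple squares), each against its own WT tissue. DNA replication genes are highest after acute loss (1.23 against 0.35 in the tumours) and nuclear oxidative phosphorylation genes are lowest in BA tumours (-1.11).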

How the data were processed

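Bulk RNA-seq was made from 53 mouse libraries, of which 8 form the main comparison and 23 the 2 reference comparisons. Per the study's methods, libraries adapted from the Illumina TruSeq RNA LT kit were sequenced as 2 reads of 36 bases, checked with FastQC 0.11.8, trimmed with Trim Galore 0.6.4, aligned with HISAT2 2.1.0 to GRCm38 (Ensembl 98) and counted per gene with featureCounts 1.6.4. The authors deposited the resulting raw read counts per gene, without normalization, for 55421 genes. Whether the counting used strand, and how reads that map to several places were treated, is not given in the sources used here. The other 22 libraries of the table, colon tissue at day 30, were not used here.

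Groups were taken from the labels. Symbols and positions came from GENCODE M21 (GRCm38), which named 55240 of the gene identifiers, and promoter windows from RefSeq (GRCm38.p6). Tests on the counts used edgeR 4.0.16 (R 4.3.3) and its quasi-likelihood F test, following its filter on low counts and TMM scaling, with a prior count of 2, one fit per comparison and Benjamini-Hochberg adjustment over all genes tested. CPM were normalised within each comparison. Differences between 2 tumour or mutant effects were interaction terms in one fit of 4 groups. A value of 3 or fewer reads over a group was taken as a floor and given no fold change. Alternatives were DESeq2 1.42.0, voom of limma 3.58.1, other scaling, no filter, a replicate block, a term for Y-linked reads (Ddx3y over 10 CPM) and leaving out each library. A fit of tumours 1, 3, 4 and 5 against WT 2 and 3 was added after seeing the data. The test was also run on simulated counts. Tables and figures were made with Python 3.11.15 and pandas 2.3.3.

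The members and the gene lists were chosen with earlier results of these data known. Named genes are members of the lists, the 15 largest rises and 15 largest falls among called genes with an average log2 CPM of at least 3, no overlap and no place on the study's Wnt list or among Wnt feedback genes, the 8 largest gains and losses in mean CPM, the 12 most variable genes over the tumours, and the 8 largest differences in each direction between effects. To see which genes share sequence, each gene's exons were cut into all overlapping words of 36 bases and the share also present in another gene's exons was counted.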

Additional observations from a re-analysis of the deposited data

Results flagged for a closer look

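For 54 of 182 named genes, 1 of the 5 tumours lay apart from the others, in that its gap to the nearest tumour exceeded 0.71 of the whole range on the scale of log2 (CPM + 0.5). Chance alone sets a sample apart in about 1 of 20 such groups, but the named genes include the 12 most variable over these tumours and Hox genes chosen for their level in tumour 2, so the count cannot be read against that rate. Tumour 2 was the lowest tumour for 39 genes and the highest for 9, and the values below are the share of the range taken by the gap.

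Among absorptive and proximal genes that were lowest in tumour 2, the share was 0.851 for Alpi, 0.832 for Apoa1, 0.850 for Apoa4, 0.784 for Apob, 0.819 for Fabp1, 0.953 for Gata4, 0.839 for Hnf4g and 0.858 for Prap1. Sugar and amino acid handling genes followed, with Mgam at 0.839, Sis at 0.8, Treh at 0.820, Slc2a2 at 0.952, Slc3a1 at 0.814, Slc5a1 at 0.925 and Slc38a4 at 0.835. Npc1l1 was at 0.796, Nr1i2 at 0.779, Cldn15 at 0.845, S100g at 0.740 and Sult6b2, a sulfotransferase, at 0.765. Among gastric and secretory genes, Anxa10 was at 0.936, Aqp5 at 0.750, Bpifb5 at 0.913, Ctse at 0.796, Fcgbp at 0.776, Gkn3 at 0.760, Muc6 at 0.878, Spdef at 0.739 and Trpm5 at 0.766. Crypt, growth and other genes lowest in tumour 2 were Btc (0.721), Cdx2 (0.717), Cldn2 (0.769), Clu (0.759), Erbb3 (0.822), Gzmb (0.732), Mki67 (0.917), Olfm4 (0.852), Pcna (0.721) and T (0.803).

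Genes highest in tumour 2 were the hindgut and colonic genes Hoxa13 (0.855), Hoxa9 (0.791), Hoxb13 (0.841), Hoxb9 (0.919) and Car1 (0.883), and Anxa8 (0.777), Fn1 (0.780), Foxa2 (0.731) and Mycl (0.816). Tumour 5 was highest for the pancreatic genes Cpa1 (0.822), Ctrb1 (0.922) and Pnlip (0.826), and tumour 4 for Ass1 (0.780), whose 5 values spanned only 26.99 to 33.3 CPM. Tumour 1 was highest for Ddx3y (0.965) and lowest for Xist (0.914).

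The effects of 2 comparisons differed by the interaction test of edgeR for many genes. Against acute Apc loss, 2759 genes lay above 0 and 2727 below, among them Hp (log2 difference 7.53, not called without WT 1, WT 2 or WT 3), Slc2a1 (2.15), Wif1 (7.94), Ncl (-1.68), Oas3 (-4.08) and Slc5a12 (-6.87). Against BA tumours, 3844 genes lay above 0 and 4752 below, among them S100g (12.34), Slc2a1 (1.95) and Cd3e (-4.07).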

How the results depend on the processing

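Of 20567 genes tested, 6461 were higher and 6189 lower. Counts were 6728 and 6857 with DESeq2, 6193 and 6398 with DESeq2 size factors in edgeR, 6434 and 5933 with library totals alone, 6166 and 6341 with limma voom and 6695 and 6798 with no filter. They moved more with a term for Y-linked reads (3877 and 3153), and 2736 rose and 4297 fell by more than 1 on the log2 scale. Leaving out 1 library gave 5462 to 7279 higher and 5256 to 7190 lower. The replicate block gave 4075 higher and 4258 lower; the numbers are not stated to pair libraries, and deviations of same-numbered libraries correlated at 0.002, 0.058 and 0.046, so they were not taken as pairs. The difference from acute Apc loss, 2759 above 0 and 2727 below, ranged from 1837 to 2873 and from 1766 to 3000 with 1 library left out, and was 2540 and 4057 with DESeq2 and 2863 and 2246 with the replicate block. The difference from BA tumours, 3844 and 4752, ranged from 2968 to 4766 and from 3658 to 4969, and was 2931 and 3727 with the replicate block. Over 178 named genes and the alternatives run, 2643 values kept their direction and side of the threshold, 174 lost a call, 19 gained one and 1 reversed: Xist, at -0.32 with the term for Y-linked reads (adjusted p = 0.518). Of 127 values for 10 differences, 3 lost a call, those of Hp without WT 1, 2 or 3. For genes of few reads in WT tissue, depth limits the fold change. Where the cause of a moved count is not given by the alternative's own construction, the cause was not tested.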

Other observations

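Some of the largest changes outside the lists were in genes whose role in the gut is not clear from these data. Mug1, a plasma protease inhibitor made by the liver, had 2 reads in WT tissue and stood at 7.89, 0.388, 1.99, 75.8 and 3.17 CPM in tumours 1 to 5, highest in tumour 4, and 37.6% of its 36-base words are shared with relatives. Gm13394, which shares 96.5% of its words with Gapdh and its copies, was at 45.7, 105 and 96.2 CPM in WT 1 to 3 and 1.299, 0.437, 1.23, 1.07 and 1.91 CPM in the tumours (log2 -6.09 ± 0.41, adjusted p = 1.89e-05 by edgeR).

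A pair of predicted genes with repeated sequence varied within WT tissue as well as between groups. Gm10800 was at 16.5, 113 and 361 CPM in WT 1 to 3 and 5.84, 5.63, 8.54, 4.38 and 1.69 CPM in the tumours. Gm21738 was at 2.01, 13.8 and 49.996 CPM in WT tissue and 0.999, 1.12, 0.854, 0.698 and 0.5402 CPM. WT 3 was highest and WT 1 lowest of the WT libraries for both, and 38.2% and 39.6% of their words are shared with other genes.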
